A study of Mus musculus with 9 samples.

Results

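Expression of 10 genes known for their roles in macrophages, monocytes, granulocytes and mast cells was followed in a mouse B-cell line treated with inhibitors of the histone methyltransferase EZH2. The count table holds 45361 genes, and the 10 are Lyz2, Fcer1a, Fcer1g, Tyrobp, Adgre1, Csf1r, Csf2ra, Csf2rb, Itgam and Cd14. They were taken by symbol and were chosen by the measured rise of Lyz2, Fcer1a and Adgre1 with the inhibitors in these same libraries. The values of those 3 genes against DMSO are therefore given as a description, without a test. The cells were CH12F3, B-lymphoma cells of the mouse that undergo class switching in culture. All 9 libraries came from cells with the genotype Ligase4 KO, which lack a ligase of classical end joining, after 24 h of stimulation by anti-CD40, TGF-β and IL-4. Each group had 3 libraries and differed in what was added: DMSO, the solvent control, tazemetostat, an inhibitor of EZH2, or valemetostat, which inhibits EZH2 and also EZH1. The sources used here do not give inhibitor doses, the length of exposure or whether the knockout line is a single clone. The stated question was how transcription changes with either inhibitor.

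EZH2 and EZH1 are the catalytic subunits of Polycomb repressive complex 2, which methylates lysine 27 of histone H3 at genes that a cell keeps silent. In B cells, genes of the other blood lineages are among those held at low levels, and B-cell factors such as PAX5 are known to repress several myeloid genes, Csf1r among them. The 10 genes fall into groups by role. Lyz2 encodes lysozyme M, an enzyme that cuts bacterial cell walls. Fcer1a encodes the IgE-binding chain of the high-affinity IgE receptor. Fcer1g and Tyrobp encode adaptors that carry ITAM motifs and pass on the signals of Fc and related receptors. Adgre1 encodes F4/80, an adhesion G protein-coupled receptor used as a surface marker of mouse macrophages. Csf1r, Csf2ra and Csf2rb encode receptors or receptor chains for the colony-stimulating factors, Itgam the integrin chain CD11b, and Cd14 a co-receptor for bacterial lipopolysaccharide.

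Library totals ran from 34080504 to 46675110 counts, so that 3 counts in a library corresponded to 0.0633 to 0.0870 CPM (counts relative to the library total, with TMM scaling). Of the 10 genes, 9 passed a filter on low counts and entered the fit with 12580 genes in all, and Cd14 did not. Genes near 0 in DMSO passed that filter through the inhibitor libraries, so their presence among the tested genes already required a difference. The B-cell origin stated in the labels was checked on 12 B-cell identity genes, all of which were detected, with summed levels of 7656 to 8320 CPM in DMSO, 9111 to 9337 with tazemetostat and 9078 to 9502 with valemetostat. Cd74 had the most counts of the 12, with 1804081 over all libraries, followed by Ighm with 703065, so the sums rest mainly on these genes. These are bulk libraries, in which a change in the number of cells that express a gene and a change in the RNA per cell cannot be told apart.

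Lyz2 and Fcer1a showed the largest relative change of the 10, and the stretches of 250 bases upstream of their annotated starts are printed here so that the letters can be read beside the values. Both are from RefSeq on GRCm38.p6, which is not the build of the deposited files, and both genes lie on the minus strand. The Lyz2 window is chr10:117282273-117282522 and the Fcer1a window is chr1:173227230-173227479. Capitals mark matches, on either strand, to GAGGAA (the core bound by PU.1), TTNNGNAA (the C/EBP site) or AGATAA (the GATA site).
Lyz2: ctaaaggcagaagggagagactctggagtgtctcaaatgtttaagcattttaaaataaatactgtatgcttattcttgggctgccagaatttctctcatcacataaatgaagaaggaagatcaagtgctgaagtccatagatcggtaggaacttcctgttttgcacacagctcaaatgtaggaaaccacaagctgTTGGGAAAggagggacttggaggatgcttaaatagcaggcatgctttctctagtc
Fcer1a: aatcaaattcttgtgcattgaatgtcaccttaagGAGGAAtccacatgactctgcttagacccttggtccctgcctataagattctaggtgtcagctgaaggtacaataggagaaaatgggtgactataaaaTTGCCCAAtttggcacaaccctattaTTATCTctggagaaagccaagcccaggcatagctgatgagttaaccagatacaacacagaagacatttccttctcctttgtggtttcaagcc
The Lyz2 window held 1 match to the C/EBP pattern, 55 bases before the start, and no match to the other motifs. The Fcer1a window held 1 match to each motif, with PU.1 at 216, C/EBP at 118 and GATA at 92 bases before the start. Among 32851 RefSeq windows of the same length, 23.3% held GAGGAA, 36.8% TTNNGNAA and 9.99% AGATAA. Matches to GAGGAA and TTNNGNAA are thus common, and those to AGATAA less so. The share of windows that hold a match to every motif was not computed. The windows were low in CpG, with 1 CpG for Lyz2 and 0 for Fcer1a against a median of 6. Of all windows, 18.8% had no more CpG than Lyz2 and 7.87% no more than Fcer1a. The RefSeq table also held Fcer1g with 5 CpG, Itgam with 6 and Csf2ra with 17, so 5 of the 10 genes were matched.

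Lysozyme M went from the edge of detection to a low level with either inhibitor. In DMSO, Lyz2 had 2, 1 and 0 counts per library, against 63, 52 and 52 under tazemetostat and 63, 61 and 21 under valemetostat. The third valemetostat library was the lowest of the 6 inhibitor libraries, and it still lay above each DMSO library. Levels were 0.0237 ± 0.0216 CPM in DMSO, 1.35 ± 0.126 with tazemetostat and 1.31 ± 0.651 with valemetostat (SD, n = 3 each). With 3 counts over the DMSO group, the ratio of summed counts per library total was 52.6 for tazemetostat (exact counting interval 17.7 to 257) and 51.4 for valemetostat (17.2 to 252). The ratio rests on which DMSO libraries are kept: for tazemetostat it was 36.6 without DMSO library 3 and 94.1 without DMSO library 1, and for valemetostat 35.8 and 91.9. Without the third valemetostat library the valemetostat ratio was 65.9. Its near-identical neighbour Lyz1, lysozyme P, had 0 counts in all 9 libraries. Of the 150-base windows of the Lyz2 transcript in GENCODE M21, 0% occurred in Lyz1.

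**Figure D1:**
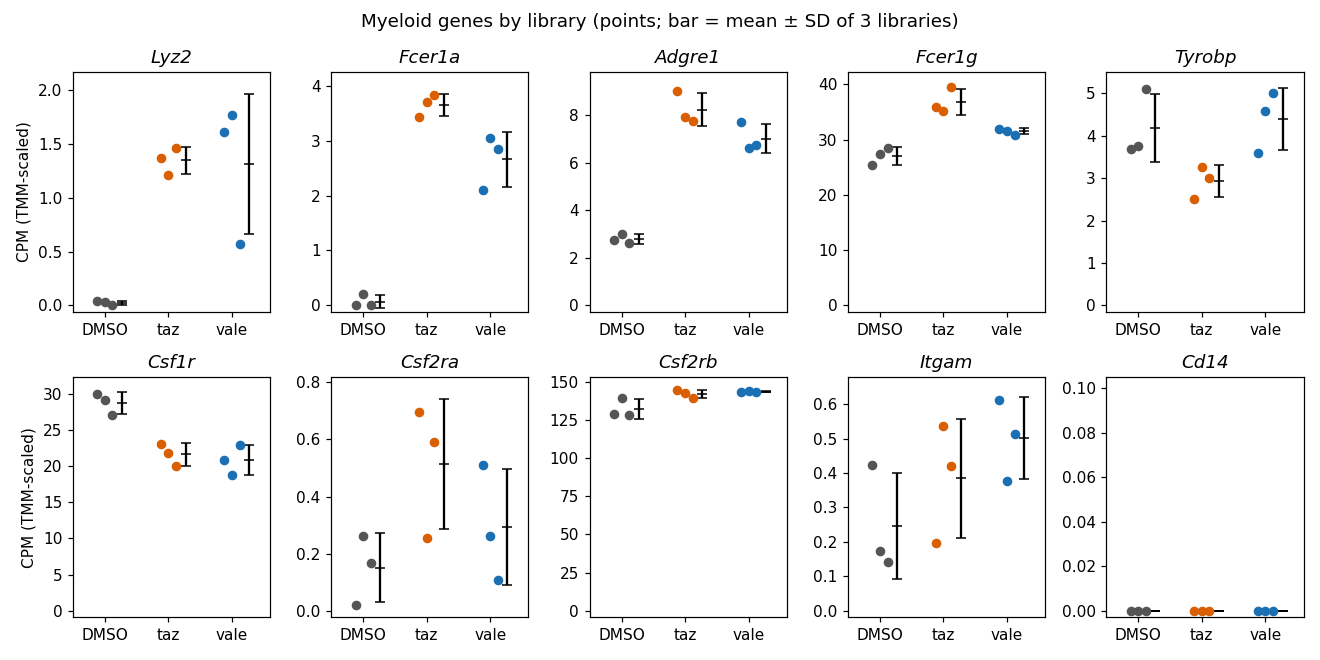
Level of each of the 10 genes in every library, in TMM-scaled CPM on a linear axis from 0, with DMSO in grey, tazemetostat (taz) in orange and valemetostat (vale) in blue. Points are libraries and the bars beside them show the mean ± SD of 3. Lyz2, Fcer1a and Adgre1 stand higher in all 6 inhibitor libraries, Csf1r stands lower, and Cd14 is at 0 throughout.

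The IgE receptor chain followed the same course, while of its partner chains Fcer1g rose by far less and Ms4a2 stayed near 0. Fcer1a had 0, 7 and 0 counts in DMSO, 158, 159 and 136 with tazemetostat, and 82, 105 and 105 with valemetostat. All 7 DMSO counts came from library 2, and the lowest inhibitor library had 82. Levels were 0.0677 ± 0.117 CPM in DMSO, 3.65 ± 0.199 with tazemetostat and 2.66 ± 0.501 with valemetostat (SD, n = 3 each). The ratio of summed counts per library total was 61.1 for tazemetostat (29.4 to 153) and 44.3 for valemetostat (21.2 to 111). Without DMSO library 1 the ratios were 36.5 and 26.4. Without DMSO library 2, no DMSO count was left, and the level was at least 101-fold higher with tazemetostat and at least 73.1-fold higher with valemetostat, against a floor of 3 counts over the remaining DMSO libraries. By fitted log2 fold change, Fcer1a ranked 68 with tazemetostat and 77 with valemetostat, and Lyz2 70 and 75, among the 12580 tested genes. Of these, 156 had no more than 7 counts summed over DMSO. Ms4a2, the β chain that joins Fcer1a in the mast-cell receptor, had 0, 0 and 3 counts summed over the DMSO, tazemetostat and valemetostat groups.

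Fcer1g, the γ chain shared by the IgE receptor and several Fcγ receptors, was already well expressed in DMSO and rose by a small amount. Its counts were 1202, 947 and 1017 in DMSO, 1649, 1511 and 1408 with tazemetostat, and 1255, 1091 and 1142 with valemetostat. On the CPM scale the groups did not overlap: DMSO reached 28.5, valemetostat lay between 30.9 and 32.0, and tazemetostat began at 35.2. The log2 fold change was 0.44 ± 0.07 with tazemetostat (edgeR quasi-likelihood adjusted p = 1.75e-05) and 0.22 ± 0.07 with valemetostat (edgeR adjusted p = 0.0162). The tazemetostat call held in all 18 other settings tried, with log2 fold changes of 0.26 to 0.48. The valemetostat call held in 15 of 18, and was lost in limma on the deposited log2(TPM + 1) values (0.11, adjusted p = 0.154), in edgeR without DMSO library 1 (0.17, adjusted p = 0.0895) and in edgeR with an offset for transcript length and GC content (0.01, adjusted p = 0.896).

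Tyrobp, also called DAP12, is the adaptor of TREM and related receptors. It had 175, 130 and 182 counts in DMSO, 116, 140 and 107 with tazemetostat, and 141, 158 and 185 with valemetostat. Its CPM were 3.69, 3.77 and 5.10 in DMSO, 2.52, 3.26 and 3.01 with tazemetostat, and 3.60, 4.58 and 5.01 with valemetostat. The tazemetostat libraries lay below the DMSO libraries, and the valemetostat libraries overlapped them. Tyrobp fell by 0.51 ± 0.19 on the log2 scale with tazemetostat (edgeR adjusted p = 0.0382). It was not called with valemetostat, at 0.07 ± 0.19 (edgeR adjusted p = 0.798). The tazemetostat call held in 14 of 18 other settings and was lost in edgeR without DMSO library 3 (adjusted p = 0.200), without tazemetostat library 1 (adjusted p = 0.146), without tazemetostat library 3 (adjusted p = 0.0697) and in a fit of those groups alone (adjusted p = 0.0523).

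Adgre1 was expressed at a low level in DMSO and was higher in both inhibitor groups. It had 130, 104 and 94 counts in DMSO, 416, 341 and 276 with tazemetostat, and 303, 228 and 249 with valemetostat. Levels were 2.80 ± 0.197 CPM in DMSO, 8.25 ± 0.695 with tazemetostat and 7.03 ± 0.614 with valemetostat (SD, n = 3 each). The highest DMSO library was at 3.02 CPM and the lowest inhibitor library at 6.61, so the groups did not overlap on this scale. The log2 fold change was 1.56 ± 0.15 with tazemetostat and 1.33 ± 0.15 with valemetostat, which placed Adgre1 at ranks 527 and 602 of the tested genes.

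For Adgre1 the deposited TPM, abundances that also divide by transcript length, gave a less separated picture than the counts. Its TPM were 1.17, 3.54 and 1.10 in DMSO, 3.72, 3.27 and 4.08 with tazemetostat, and 3.62, 5.80 and 3.20 with valemetostat. DMSO library 2 thus lay within the range of the inhibitor libraries. The ratio of TPM to CPM was 1.17 in that library and 0.878 in valemetostat library 2, but 0.411 to 0.526 in the other 7. The highest ratio over the lowest was 2.85, at the 98.5 percentile of 10997 genes above a mean of 1 CPM, whose median was 1.16. Adgre1 has 5 transcripts of 342 to 3238 nt in GENCODE M21. On log2(TPM + 1) the change was 0.77 with tazemetostat and 0.89 with valemetostat. The part of transcript assignment in this difference was not tested.

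**Figure D2:**
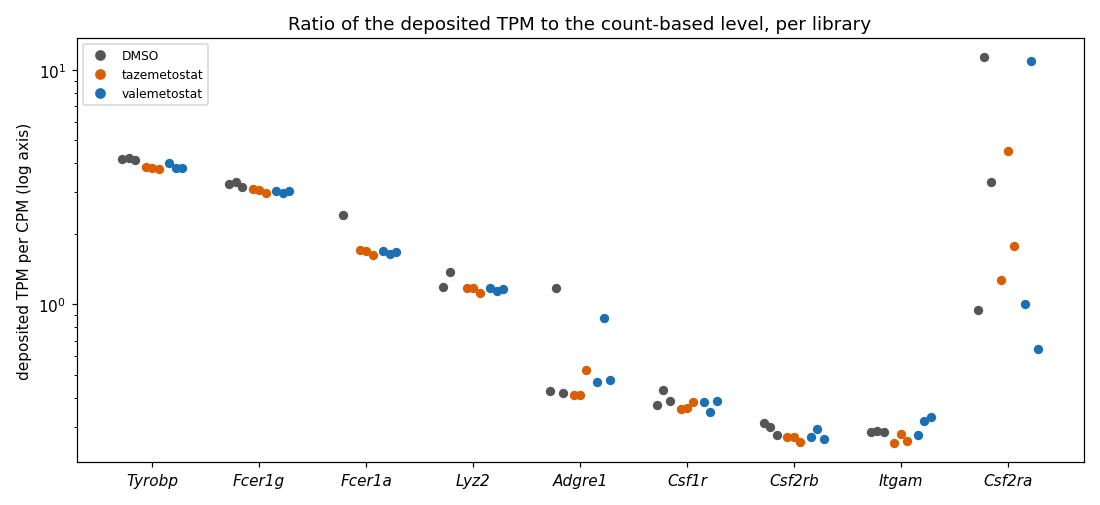
Deposited TPM divided by CPM in each library for the 9 detected genes, on a logarithmic axis, with libraries coloured by group; libraries at 0 counts have no point. For most genes the points form a tight cluster, whereas Adgre1 has DMSO library 2 at 1.17 and valemetostat library 2 at 0.878 above the rest, and Csf2ra spreads from 0.646 to 11.3.

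Among the receptors for colony-stimulating factors, Csf1r fell, and the calls of Csf2ra and Csf2rb depended on the setting. Csf1r, the receptor for CSF1 and IL-34 on which most macrophages depend, had 1421, 1003 and 966 counts in DMSO, 1063, 935 and 710 with tazemetostat, and 817, 648 and 848 with valemetostat. Levels were 28.7 ± 1.48 CPM in DMSO, 21.6 ± 1.58 with tazemetostat and 20.9 ± 2.09 with valemetostat (SD, n = 3 each). All 6 inhibitor libraries lay below the DMSO libraries. The log2 fold change was -0.41 ± 0.08 with tazemetostat (edgeR adjusted p = 0.000332) and -0.46 ± 0.08 with valemetostat (edgeR adjusted p = 8.99e-05). Both calls held in all 18 other settings. Csf1r overlaps Hmgxb3 on the other strand, and since the use of strand in counting is not given, reads of the pair may be mixed. Hmgxb3 itself stood at 102 CPM in DMSO and was not called, at -0.09 ± 0.05 with tazemetostat and -0.10 ± 0.05 with valemetostat (edgeR adjusted p = 0.165 and 0.148).

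Csf2ra, the specific chain of the GM-CSF receptor, stayed near the limit of detection. It had 1, 9 and 6 counts in DMSO, 32, 11 and 21 with tazemetostat, and 20, 9 and 4 with valemetostat. The CPM of the groups overlapped, since tazemetostat library 2 at 0.256 lay under DMSO library 2 at 0.261. The ratio of summed counts per library total was 3.78 for tazemetostat (2.16 to 6.999) and 2.19 for valemetostat (1.17 to 4.26), where the intervals cover counting error only. The log2 fold change was 1.83 ± 0.72 with tazemetostat (edgeR adjusted p = 0.0465) and 1.04 ± 0.76 with valemetostat (edgeR adjusted p = 0.295). Csf2ra passed the filter on low counts through inhibitor libraries, so no support for a rise is read from the tazemetostat value. On log2(TPM + 1) the valemetostat change was -0.01, and mean TPM was 1.18 in DMSO, 1.03 with tazemetostat and 1.14 with valemetostat. The tazemetostat call held in 5 of the 17 other settings that gave a value. Among those that lost it were DESeq2 (adjusted p = 0.0523) and edgeR without DMSO library 1 (1.25, adjusted p = 0.226), DMSO library 3 (adjusted p = 0.0954), tazemetostat library 1 (adjusted p = 0.181), tazemetostat library 3 (adjusted p = 0.120) or any of the valemetostat libraries, which share the estimate of the spread (adjusted p = 0.0532 to 0.0678). It was also lost in edgeR with library totals (adjusted p = 0.0521), with no filter on counts (adjusted p = 0.0667) and with a replicate term (1.77, adjusted p = 0.0813). In limma on log2(TPM + 1) it was lost as well, where the change was 0.13 (adjusted p = 0.886). Its TPM per CPM ranged 17.5-fold over the libraries, at the 99.95 percentile of the genes above 1 CPM, and GENCODE M21 lists 8 transcripts of 291 to 2277 nt.

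Csf2rb, the β common chain through which GM-CSF, IL-3 and IL-5 signal, was the most highly counted of the 10. It had 6105, 4806 and 4569 counts in DMSO, 6657, 6115 and 4956 with tazemetostat, and 5617, 4964 and 5294 with valemetostat. Its CPM were 128.7, 139.4 and 128.1 in DMSO, 144.7, 142.4 and 139.3 with tazemetostat, and between 143.3 and 143.9 with valemetostat. The log2 fold change was 0.12 ± 0.05 with valemetostat (edgeR adjusted p = 0.0395) and 0.11 ± 0.05 with tazemetostat, which was not called (edgeR adjusted p = 0.0693). The valemetostat call held in 10 of 18 other settings. Among those that lost it were edgeR without DMSO library 1 (adjusted p = 0.116), DMSO library 3 (adjusted p = 0.105), or valemetostat library 1, 2 or 3 (adjusted p = 0.0759, 0.0742 and 0.0637), and edgeR with library totals (adjusted p = 0.0787). It was also lost in edgeR with a replicate term (adjusted p = 0.0568) and on log2(TPM + 1), where the change was 0.02 (limma adjusted p = 0.826). There the tazemetostat change of Csf2rb turned to -0.04, with mean TPM of 39.1 in DMSO and 37.9 with tazemetostat. The tazemetostat value passed in 4 of the other settings, among them without DMSO library 2 (edgeR adjusted p = 0.0301) and without tazemetostat library 3 (edgeR adjusted p = 0.0471). Csf2rb2, a near-identical IL-3 receptor chain that shares 3.47% of the 150-base windows of Csf2rb, rose by 0.25 ± 0.06 and 0.23 ± 0.06 (edgeR adjusted p = 0.00238 and 0.00461). Neither call of Csf2rb2 held on log2(TPM + 1) (limma adjusted p = 0.583 and 0.508).

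The integrin chain CD11b and the lipopolysaccharide co-receptor showed no change that passed the test. Itgam had 20, 6 and 5 counts in DMSO, 9, 23 and 15 with tazemetostat, and 24, 13 and 19 with valemetostat. The groups overlapped, with the first DMSO library at 0.422 CPM above the lowest library of either inhibitor. The log2 fold change was 0.59 ± 0.59 with tazemetostat (edgeR adjusted p = 0.468) and 0.98 ± 0.59 with valemetostat (edgeR adjusted p = 0.196), and none of the other settings called it. In GENCODE M21, Itgam overlaps Gm49368 on the same strand, and Gm49368 had 0 counts in all libraries. How reads shared by the pair were counted is not given, so the level of Itgam may be too low. Cd14 had 0 counts in each library, which at an exact Poisson upper limit allows 0.0314 CPM in DMSO, 0.0296 with tazemetostat and 0.0333 with valemetostat over the summed libraries.

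Leaving aside the 3 genes picked for their rise, the other 7 did not move in one direction. With tazemetostat 2 of them were called higher (Fcer1g and Csf2ra), 2 lower (Csf1r and Tyrobp), 2 were not called and 1 was not tested. With valemetostat 2 were higher (Fcer1g and Csf2rb), 1 lower (Csf1r), 3 not called and 1 not tested. Over all tested genes 38.1% were called with tazemetostat, 19.9% higher and 18.2% lower, and 39.2% with valemetostat, 20.5% higher and 18.7% lower. On the log2(TPM + 1) values the share of higher calls among all calls was 37.7% and 36.0%, against 52.3% for the counts in both comparisons. Since Cd14 was not tested, the counts to set beside these shares are 4 of 6 and 3 of 6 genes, and nothing particular to them is read from so few. The tazemetostat count includes Csf2ra, which passed the filter on low counts through inhibitor libraries and whose call was lost in most other settings. Counting the picked genes, the libraries of 6 of the 9 tested genes did not overlap DMSO in CPM with tazemetostat, 4 higher and 2 lower, against 47.4% of all tested genes (24.1% higher and 23.3% lower). With valemetostat these were also 6, of which 5 higher and 1 lower, against 48.5% (24.8% higher and 23.7% lower). Since the rule used these contrasts, nothing is read from that count.

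**Figure D3:**
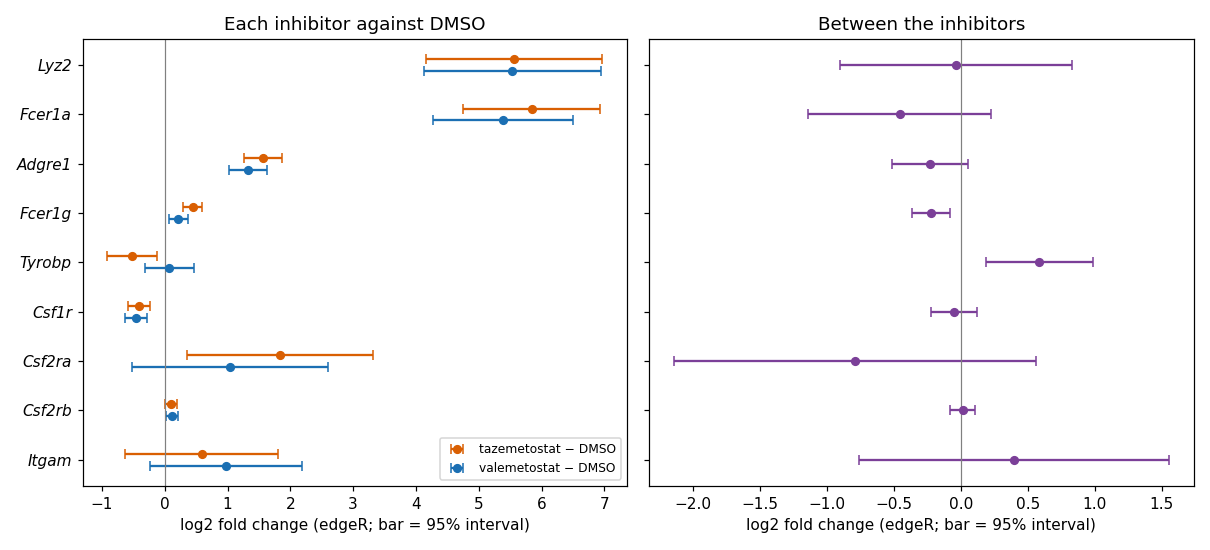
log2 fold change with its 95% interval in edgeR for the 9 tested genes, each inhibitor against DMSO on the left (tazemetostat orange, valemetostat blue) and valemetostat against tazemetostat on the right. Lyz2 and Fcer1a lie beyond 5 against DMSO and Adgre1 above 1, the others lie nearer 0 or have wide intervals, and on the right the intervals of Fcer1g and Tyrobp are the ones that do not include 0. The left values of Lyz2, Fcer1a and Adgre1 are shown as a description.

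Compared per transcript length, the order of the genes in DMSO was led by Fcer1g and Csf2rb and not by the genes that rose most. Mean TPM in DMSO was 88.2 ± 4.66 for Fcer1g, 39.1 ± 3.17 for Csf2rb, 17.4 ± 3.11 for Tyrobp and 11.3 ± 1.04 for Csf1r (SD, n = 3 each). Below these came Adgre1 at 1.94 ± 1.39, Csf2ra at 1.18 ± 1.56, Fcer1a at 0.163 ± 0.283, Itgam at 0.07 ± 0.0436 and Lyz2 at 0.03 ± 0.0265, with Cd14 at 0. The neighbours Adgre1 and Csf2ra overlapped in their DMSO libraries, as did Fcer1a, Itgam and Lyz2. Of the tested genes, 87.4% had a lower DMSO TPM than Fcer1g, 42.0% than Csf1r and 1.04% than Lyz2. With tazemetostat, Fcer1a reached a mean TPM of 6.1, Adgre1 3.69 and Lyz2 1.56. With valemetostat they reached 4.41, 4.21 and 1.52. After the rise, Fcer1a and Lyz2 thus remained below Csf1r, at 7.91 and 7.8 TPM, which had fallen.

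The inhibitors were also compared with each other, a comparison in which the rule for picking the genes played no part. Since the doses are not given, the values stand side by side without a claim of matched exposure. No gene of the 10 was called in edgeR, DESeq2 or limma, and over all tested genes 0.318% were called, 0.0636% higher with valemetostat and 0.254% lower. At an unadjusted p under 0.05, edgeR and DESeq2 each had 2 of the 9 tested genes and limma 3. The share of all tested genes at that threshold was not computed, so nothing is read from these counts. The libraries of the inhibitors did not overlap in CPM for 4 of the 9 tested genes, against 14.1% of all tested genes (6.97% with valemetostat higher and 7.12% with it lower). In CPM, valemetostat was the lower for Fcer1a, Fcer1g and Adgre1 and the higher for Tyrobp. For Adgre1 the gap was small, with the highest valemetostat library at 7.731 CPM and the lowest tazemetostat library at 7.755, and on log2(TPM + 1) the difference had the other sign, at 0.12. The difference, valemetostat minus tazemetostat, was -0.22 for Fcer1g (95% interval -0.37 to -0.08, edgeR adjusted p = 0.274) and 0.59 for Tyrobp (0.19 to 0.98, edgeR adjusted p = 0.341). For Fcer1a it was -0.46 (-1.14 to 0.22, edgeR adjusted p = 0.790) and for Adgre1 -0.23 (-0.51 to 0.05, edgeR adjusted p = 0.713). Lyz2 differed by -0.03, with an interval of -0.90 to 0.83 that leaves room for a difference in either direction (edgeR adjusted p = 0.994). The narrowest intervals were those of Csf2rb, at 0.01 (-0.08 to 0.11), and Fcer1g. Csf1r stood at -0.05 (-0.23 to 0.12), while those of Csf2ra (-2.15 to 0.56) and Itgam (-0.77 to 1.55) were wide.

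The wider families of the 10 genes held members that rose, members that fell and members that were not called. With tazemetostat 19.9% of all tested genes were called higher and 18.2% lower, and with valemetostat 20.5% and 18.7%. The counts of each list here and below are to be set beside these shares, and no list was tested as a set. In a list of 22 other Fc receptors, ITAM adaptors and their signalling proteins, 16 were tested. With tazemetostat 8 rose and 2 fell, and with valemetostat 11 rose and 2 fell, with median log2 changes of 0.31 and 0.56 where all tested genes had 0.00 and 0.01. The tested genes include Clec5a and Cd300ld, which were low in DMSO and passed the filter on low counts through the inhibitor libraries. Nothing about this list as a whole is therefore read from its counts or medians. Fcer2a, the low-affinity IgE receptor CD23 of B cells, rose by 1.35 ± 0.06 and 1.32 ± 0.06 (edgeR adjusted p = 5.28e-15 and 7.72e-15). The inhibitory receptor Fcgr2b rose by 0.72 ± 0.13 and 0.63 ± 0.13, and the adaptor Gab2 by 0.67 ± 0.11 and 0.57 ± 0.12, and the largest edgeR adjusted p of Gab2 was 0.000334. Treml2 rose by 0.42 ± 0.07 and 0.28 ± 0.07. On log2(TPM + 1) the valemetostat calls of Gab2 and Treml2 were lost (limma adjusted p = 0.0821 and 0.119). Trem2 and Sirpb1a, whose products pair with Tyrobp, had 0 counts in all libraries.

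In a list of 21 colony-stimulating factors, their receptors and downstream signalling genes, 15 were tested. Tazemetostat raised 9 and lowered 3, valemetostat raised 9 and lowered 1, and the medians were 0.28 and 0.25. Of all tested genes, tazemetostat raised 19.9% and lowered 18.2%, and valemetostat raised 20.5% and lowered 18.7%. The tested genes of the list include Csf2 and Csf3, which were low in DMSO and passed the filter through the inhibitor libraries. Nothing about this list as a whole is therefore read from its counts or medians. The STAT5 target Cish, which dampens cytokine signalling, rose by 1.08 ± 0.08 and 1.26 ± 0.08 (edgeR adjusted p = 5.43e-11 and 2.84e-12). The kinase Jak2, which acts below the β common chain, rose by 0.82 ± 0.07 and 0.65 ± 0.07 (edgeR adjusted p = 4.79e-10 and 3.02e-08). Stat5a rose by 0.28 ± 0.05 and 0.25 ± 0.05, and Stat5b by 0.31 ± 0.05 and 0.23 ± 0.05. On log2(TPM + 1) the calls of Stat5a were lost with both inhibitors (limma adjusted p = 0.473 and 0.470), and that of Stat5b with valemetostat (limma adjusted p = 0.214).

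Around Itgam, the β2 integrin list had 7 tested genes of 8, of which tazemetostat raised 4 and lowered 1, and valemetostat raised 3 and lowered 1, both with a median of 0.17. The other myeloid α chain, Itgax or CD11c, had 32 counts summed over DMSO, 288 with tazemetostat and 221 with valemetostat. Its log2 fold changes were 3.10 ± 0.44 and 2.90 ± 0.45. With 2 to 15 counts per DMSO library, Itgax passed the filter through the inhibitor libraries, so these values are a description without a test. Itgb2, the β chain that Itgam and Itgax pair with, rose by 0.26 ± 0.06 and 0.28 ± 0.06 (edgeR adjusted p = 0.000876 and 0.00037). Fermt3, an activator of integrins, rose by 0.23 and 0.24, and Itgal, the lymphocyte α chain, fell by 0.15 and 0.18 on the log2 scale. The tazemetostat call of Itgal was lost without DMSO library 1, DMSO library 2 or tazemetostat library 3 (edgeR adjusted p = 0.0837, 0.0862 and 0.0582). On log2(TPM + 1) those of Itgb2 (limma adjusted p = 0.0609 and 0.0509) and Fermt3 (0.152 and 0.157) were lost. Around Cd14, the lipopolysaccharide and Toll-like receptor list had 17 tested genes of 17. With tazemetostat 4 rose and 4 fell, with valemetostat 3 rose and 5 fell, and the medians were -0.05 and -0.02. Among all tested genes 19.9% rose and 18.2% fell with tazemetostat, and 20.5% and 18.7% with valemetostat, so nothing about either list as a whole is read from its counts. Tlr4, the receptor that CD14 serves, rose by 1.36 ± 0.30 and 1.03 ± 0.31 (edgeR adjusted p = 0.000929 and 0.00906), while its partner Ly96 was not called, at 0.29 ± 0.26 and -0.02 ± 0.26 (edgeR adjusted p = 0.414 and 0.9501). Tlr2 fell by 0.36 and 0.52, Tlr1 fell by 0.37 and 0.25, and Irak3, a brake on the pathway, rose by 1.34 ± 0.25 and 1.21 ± 0.26. With valemetostat the call of Tlr4 was lost without DMSO library 1 (edgeR adjusted p = 0.0514), and that of Tlr1 without DMSO library 1 or 3 or valemetostat library 1 or 3 (edgeR adjusted p from 0.05004 to 0.0805). On log2(TPM + 1) the valemetostat call of Tlr4 was lost as well (limma adjusted p = 0.0534).

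Of the granule and phagocyte genes that accompany lysozyme in myeloid cells, those of the NADPH oxidase were expressed and several granule genes were at 0. Of 17 such genes, 6 had 0 counts in all libraries (Lyz1, Ctsg, Camp, S100a8, S100a9 and Chil3) and 5 were tested. With each inhibitor 2 rose and 1 fell, with medians of 0.04 and 0.09. The NADPH oxidase subunits, which B cells also use, made up these calls: Ncf4 rose by 0.37 ± 0.06 and 0.38 ± 0.06, Cyba rose by 0.20 and 0.25, and Cybb fell by 0.19 and 0.15 on the log2 scale. The calls of Cybb were lost without DMSO library 1 (edgeR adjusted p = 0.0552 and 0.163), the tazemetostat call also without tazemetostat library 3 (0.0806), and the valemetostat call also without DMSO library 2 (0.0589) and valemetostat libraries 1 (0.152) and 2 (0.147). Those of Cyba were lost with the offset for length and GC content (edgeR adjusted p = 0.143 and 0.0721). With that offset the valemetostat call of Cybb was lost too (edgeR adjusted p = 0.0685). On log2(TPM + 1) the calls of Cyba (limma adjusted p = 0.131 and 0.0592) and Cybb (0.0512 and 0.0980) were lost with both inhibitors. Of the relatives of Adgre1, Adgre4 and Adgre5, 1 was tested and was not called.

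**Figure D4:**
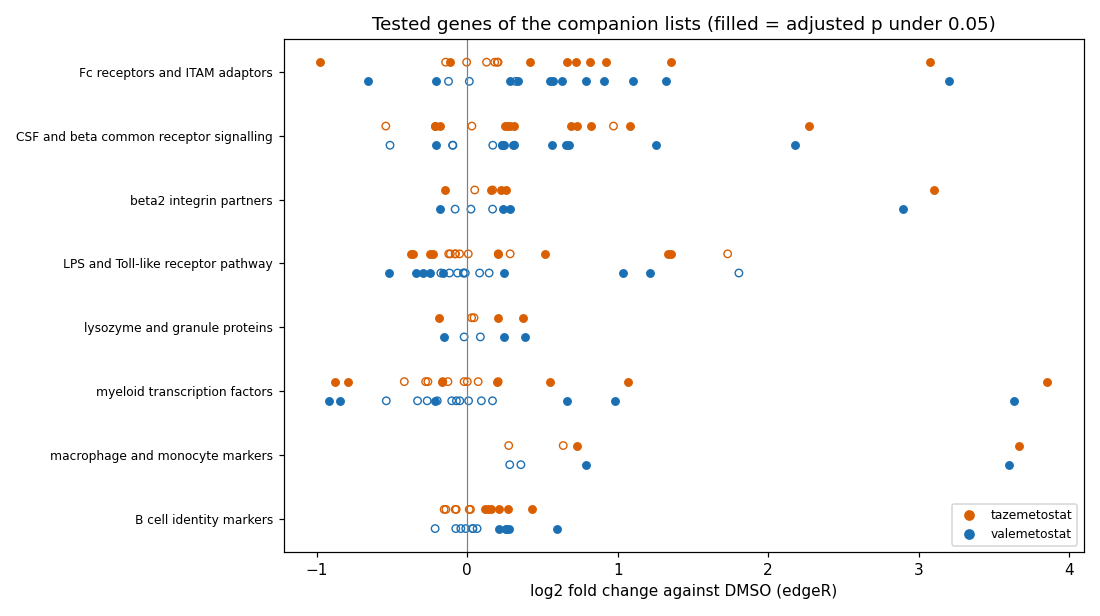
log2 fold change against DMSO in edgeR of each tested gene in 8 lists, tazemetostat in orange and valemetostat in blue, filled where the adjusted p was under 0.05. Most points lie between -1 and 1 in each list, and the tazemetostat points beyond 3 are Cd300ld, Itgax, Spic and Mrc1. Clec5a, a list gene with 0 counts in DMSO, is not drawn because its fitted fold change has no finite base.

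Of 22 transcription factors of myeloid cells, 16 were tested. With tazemetostat 4 rose and 3 fell, and with valemetostat 3 rose and 3 fell, with medians of -0.07 and -0.09. The shares over all tested genes were 19.9% higher and 18.2% lower, and 20.5% and 18.7%, so nothing about the factors as a group is read from these counts. Spi1, which encodes PU.1, a factor of B cells and myeloid cells, was not called, at 0.07 ± 0.07 and 0.01 ± 0.07 (edgeR adjusted p = 0.475 and 0.939). Cebpa had 0 counts in all libraries, and Cebpb rose by 0.55 ± 0.16 and 0.66 ± 0.16 (edgeR adjusted p = 0.0100 and 0.00221). The tazemetostat call of Cebpb was lost without DMSO library 1 (edgeR adjusted p = 0.0644) and on log2(TPM + 1) (limma adjusted p = 0.0598). Spic, a PU.1 relative needed for red-pulp macrophages, had 14, 223 and 167 counts summed over the DMSO, tazemetostat and valemetostat groups. Its log2 fold changes were 3.85 ± 0.44 and 3.63 ± 0.45. With 3 to 6 counts per DMSO library, Spic passed the filter through the inhibitor libraries, so these values are a description without a test. Irf8 fell by 0.79 and 0.85, Zeb2 fell by 0.88 and 0.92, and Irf5 fell by 0.17 and 0.21 on the log2 scale, with a largest edgeR adjusted p of 0.00785.

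Markers of whole myeloid cell types were then read beside the 10 genes. Of 20 macrophage and monocyte markers, 4 were tested and 4 had 0 counts in all libraries (C1qa, C1qc, Cd163 and Vsig4). The summed level of the 20 markers was 9.31 to 10.9 CPM in DMSO, 16.3 to 16.7 with tazemetostat and 15.5 to 18.2 with valemetostat. Cd68 made up most of it, with means of 6.56, 10.9 and 11.3 CPM in these groups. The tested markers that rose with each inhibitor were Cd68, a lysosomal protein, by 0.73 ± 0.12 and 0.79 ± 0.12 (largest edgeR adjusted p of 3.00e-05), and Mrc1, the mannose receptor, by 3.67 ± 0.67 and 3.60 ± 0.67. With 0 to 5 counts per DMSO library, Mrc1 passed the filter through the inhibitor libraries, so its edgeR values are a description without a test. Mrc1 had 7, 96 and 82 counts summed over the DMSO, tazemetostat and valemetostat groups, and on log2(TPM + 1), which compresses low levels, it was not called (limma adjusted p = 0.0649 and 0.0708). Of 12 mast cell and basophil markers, 3 were tested and 5 had 0 counts in all libraries (Cpa3, Mcpt8, Tpsb2, Tpsab1 and Il1rl1). The summed level of the 12 markers was 24.2 to 29.8 CPM in DMSO, 29.2 to 35.1 with tazemetostat and 34.2 to 35.7 with valemetostat. Hpgds made up most of it, with 10179 counts over all libraries, and Hdc followed with 624. Hpgds rose by 0.30 ± 0.08 and 0.41 ± 0.08 and Hdc by 1.13 ± 0.29 and 0.88 ± 0.29, while Cd200r3 fell by 1.69 on the log2 scale with tazemetostat (edgeR adjusted p = 0.0218) and was not called with valemetostat. The Cd200r3 call was lost without DMSO library 2 or 3 or any tazemetostat library (edgeR adjusted p = 0.0551 to 0.108). The valemetostat call of Hdc was lost without DMSO library 1 (edgeR adjusted p = 0.0869) or valemetostat library 3 (0.0512). On log2(TPM + 1) that call was lost too (limma adjusted p = 0.0602), as was the tazemetostat call of Hpgds (0.0596).

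Of 10 dendritic cell markers 6 were tested and 2 rose with each inhibitor, Ly6d and Ccr7, both of which B cells also express, and their summed level was 751 to 803 CPM in DMSO, 955 to 998 with tazemetostat and 974 to 1033 with valemetostat. Of 9 T cell markers 6 were tested and 1, Cd28, rose with each inhibitor. Of 8 erythroid and megakaryocyte markers 5 were tested, with Hba-a1 higher with each inhibitor and Hbb-bt lower with tazemetostat, and Pf4 at 0 counts. The Hbb-bt call was lost without any 1 of the 9 libraries (edgeR adjusted p = 0.0612 to 0.154). Of 8 fibroblast and endothelial markers 4 were tested and 1 rose, Lum, with 0, 61 and 60 counts. Lum passed the filter through the inhibitor libraries, so nothing is read from its call. Of the 12 B-cell identity genes 6 rose with tazemetostat and 5 with valemetostat, and 0 fell. For all these cell types, the shares called higher over all tested genes were 19.9% with tazemetostat and 20.5% with valemetostat, and those called lower 18.2% and 18.7%. In the comparison of the inhibitors with each other, 0 genes of any list were called, against 0.318% of all tested genes.

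The genes most like Lyz2, Fcer1a and Adgre1 across the 9 libraries were named by Pearson correlation of log2 CPM, as a description. For Lyz2 they were Gapt (r = 0.993), Ei24 (0.990) and Unc93a (0.989), for Fcer1a Krt24 (0.991), Septin5 (0.990) and Cldn12 (0.989), and for Adgre1 Arl4a (0.994) and Rap2a (0.992). These likenesses are not particular to a few genes, since 257 genes had an r over 0.95 with Lyz2, 241 with Fcer1a and 361 with Adgre1. All share the same 9 libraries and a difference between the DMSO and the inhibitor libraries.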

How the data were processed

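RNA was measured by poly(A) RNA-seq with random-hexamer priming and 150-nt read pairs, per the labels' protocols, in 9 libraries of 3 groups. The authors deposited whole-number counts of each gene. A second deposited table has log2 values, which equal log2(TPM + 1), since the TPM they give are whole hundredths (tolerance 1e-04) for 100% of entries. The genome build was mm9, per the submitters' processing notes, while the sources used here do not give the aligner, the counter, its strand setting or the annotation. GENCODE M21, on another build, served for transcript lengths, GC content and overlaps, and RefSeq on GRCm38.p6 for the upstream sequences.

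Counts were tested with the robust quasi-likelihood F test of edgeR 4.0.16 (R 4.3.3) with TMM scaling, in 1 fit of all 9 libraries, on the 12580 genes that filterByExpr kept (minimum count 10, minimum total 15). Calls used a Benjamini-Hochberg adjusted p under 0.05 over all these genes. Errors of log2 fold changes are standard errors, and their intervals are 95%. Ratios of summed counts carry exact intervals for counting error alone, because reads lacking molecular identifiers are not independent molecules. The labels do not say that replicates were separate cultures, so the spread behind the p-values may be technical. Replicates of a group differed by more than sampling noise (chi-square over degrees of freedom 5.21 to 12.95).

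The members, the companion lists and the named genes were chosen with earlier results of these data known. From each list, up to 4 called genes with the smallest adjusted p are named, besides Lyz1, Csf2rb2, Ms4a2, Itgb2, Tlr4, Ly96, Spi1, Cebpa, Cebpb and Irf8, and for the genes picked for their rise the 3 with the highest correlation. The lists cover Fc receptors, colony-stimulating factor signalling, β2 integrins, Toll-like receptors, granule proteins, adhesion receptors, transcription factors and 7 cell types. Alternatives were median-ratio size factors, library totals, DESeq2 1.42.0, no filter, a filter of 1 CPM in 3 libraries, limma-trend (3.58.1) on the deposited log2 values, a fit of the compared groups alone, a replicate term, leaving out each library, and, chosen after seeing the data, an offset for transcript length and GC content. An item that the correlation rule names is not reported here.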

Additional observations from a re-analysis of the deposited data

How the results depend on the processing

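Of 3214 values of single genes under other settings, 3069 kept their direction and their side of the threshold, 52 were called in neither setting and changed sign, 89 kept the direction and no longer passed, 4 passed where the value reported had not, and 0 that were called in either setting changed sign. These genes were the members, mostly list genes with the smallest adjusted p, and the genes most like those picked. They also cover the comparison of the inhibitors, where few genes were called. The share that stayed the same was thus shaped by the choice of genes, and nothing on stability is read from it. With tazemetostat, limma on the deposited log2(TPM + 1) called 3123 genes against 4794 in edgeR. There, of the members not picked for their rise, Fcer1g kept its higher call with tazemetostat and Csf2ra lost it (limma adjusted p = 0.886). With valemetostat Fcer1g and Csf2rb lost their higher calls (limma adjusted p = 0.154 and 0.826). Lyz2, Fcer1a and Adgre1 were picked for their rise, so their limma calls against DMSO are not given here. Members called lower with tazemetostat numbered 1 in a fit of those groups alone, and 1 to 2 when each library was left out, against 2. Members called higher with valemetostat numbered 3 to 5 when each library was left out, with 3 without DMSO library 1. These counts include the 3 genes picked for their rise, so nothing on stability is read from them. The other members called higher, Fcer1g and Csf2rb, both lost their calls without DMSO library 1 (edgeR adjusted p = 0.0895 and 0.116). Genes called between the inhibitors numbered 40 in edgeR, 77 with DESeq2, 93 with no filter on counts, 81 with the offset for length and GC content and 1 in limma. When each library was left out they numbered 9 to 73, with 9 without valemetostat library 2, 13 without valemetostat library 1, 11, 19 and 73 without tazemetostat libraries 1, 2 and 3. The causes of these shifts were not tested. Cd14 gave no fitted value in any setting, and Csf2ra and Itgam none with the filter of 1 CPM.

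Libraries with the same number were not shown to be paired: the deviations of 9 same-number pairs correlated at -0.22 to 0.24, 2 of them over 0.1, and 1 library of 9 correlated best with its own number. With a replicate block, 4527 genes were called with tazemetostat, 4713 with valemetostat and 32 between the inhibitors, and Csf2ra and Hbb-bt with tazemetostat (edgeR adjusted p = 0.0813 and 0.0556) and Csf2rb with valemetostat (0.0568) were not called. Depth limits Lyz2, Fcer1a, Csf2ra, Itgam and Cd14, which have 0 to 20 counts in each DMSO library.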

Other observations

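Other receptor and cytokine genes of the companion lists were near 0 in DMSO and were detected with both inhibitors. They were chosen after their values were seen. Clec5a, a receptor that signals through Tyrobp, had 0 counts in DMSO, 32 with tazemetostat and 47 with valemetostat, which is at least 10.1-fold and at least 16.6-fold higher with a floor of 3 counts summed over DMSO. Cd300ld, an activating receptor that pairs with Fcer1g, had 12, 111 and 108 counts, with log2 fold changes of 3.08 ± 0.59 and 3.20 ± 0.59. Csf2, which encodes GM-CSF, had 21, 110 and 91 counts, with log2 fold changes of 2.27 ± 0.54 and 2.18 ± 0.54. Both genes passed the filter on low counts through the inhibitor libraries, so their values are a description without a test. The receptor chain Csf2ra had 16, 64 and 33 counts in the same groups.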
